A study of Bos taurus with 21 samples.

Results

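The matrix metalloproteinases *MMP2*, *MMP9*, *MMP14* and *MMP19* and the tissue inhibitors *TIMP1*, *TIMP2* and *TIMP3* were followed in the muscle of cattle foetuses. They were taken as every non-control probe of the array whose RefSeq transcript belongs to 1 of these 7 genes in the cattle annotation. This gave 19 of 43653 probes, and 7 of the 12538 genes that could be named. *MMP19* was selected on its measured breed difference, which lay the same way at every stage, so that difference is a description here and carries no test. The other genes were chosen by family.

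The arrays held RNA of foetuses of 2 cattle breeds kept for beef, Blonde d'Aquitaine (BA), known for high muscle mass, and Charolais (CH). Foetuses of 110, 180, 210 and 260 days post conception (dpc) were used, 3, 2, 3 and 2 of BA and 2, 3, 3 and 3 of CH, with 1 array per foetus and 21 arrays in all. All were conceived by insemination within their breed and received no treatment, and males made up 3 of 10 BA and 5 of 11 CH foetuses. The labels name 2 sires in each breed, with 5 foetuses each in BA and at most 7 of 1 sire in CH, so every foetus has paternal half-sisters or half-brothers in its breed, and the breeds cannot be told apart from these sires. The BA foetuses were not genotyped for the myostatin mutation common in the breed, and the labels name the Longissimus thoracis muscle where the study's methods name the m. Semitendinosus, a difference that could not be settled here.

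Matrix metalloproteinases are zinc enzymes that cut collagens, laminins, proteoglycans and other proteins outside the cell, and they are made as inactive proforms. *MMP14* is anchored in the cell membrane and activates the proform of *MMP2*, a step in which *TIMP2* bridges both enzymes. Tissue inhibitors block the active enzymes, and in muscle the balance of enzymes and inhibitors is known for its part in the remodelling of connective tissue, in cell migration and in the growth of blood vessels.

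All levels below are log2 intensities scaled to the 75th percentile of their array, with the same constant added to every array, and a difference of 1 is a doubling. On each array 29027 to 34507 probes stood well above background, and levels of different probes cannot be compared. Of the 19 probes, 15 were well above background on all 21 arrays. The expression filter of the test asked for a group mean above 0 in at least 7 of the 8 groups, and 10 of the 19 probes passed it. The other 9 were taken from the same limma fit made on all probes, and *MMP14* was among them because its level sank below 0 at 260 dpc. Muscle fibre genes marked the tissue: the 6 of 8 listed genes with a probe had mean levels of 7.98 to 10.37 in the 8 groups.

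Between 110 and 260 dpc, *MMP14*, *MMP2* and *TIMP1* fell and *TIMP3* rose in both breeds, whereas *TIMP2* and *MMP9* did not pass the test. The fall was 4.94-fold for *MMP14*, 2.03-fold for *MMP2* and 1.81-fold for *TIMP1*, and the rise of *TIMP3* was 1.93-fold. *MMP19* rose 1.36-fold, a call that depended on the processing. Among the 19 probes, 4 rose and 7 fell at an adjusted p under 0.05, next to 33.3% of all tested probes that rose and 30.8% that fell. Over these months 64.1% of the tested probes and 43.9% of all probes passed, so the members' share did not stand out from the array. In BA alone 3 of 19 rose and 7 fell and in CH alone 4 rose and 7 fell, where 52.4% and 52.2% of the tested probes passed.

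**Figure D1:**
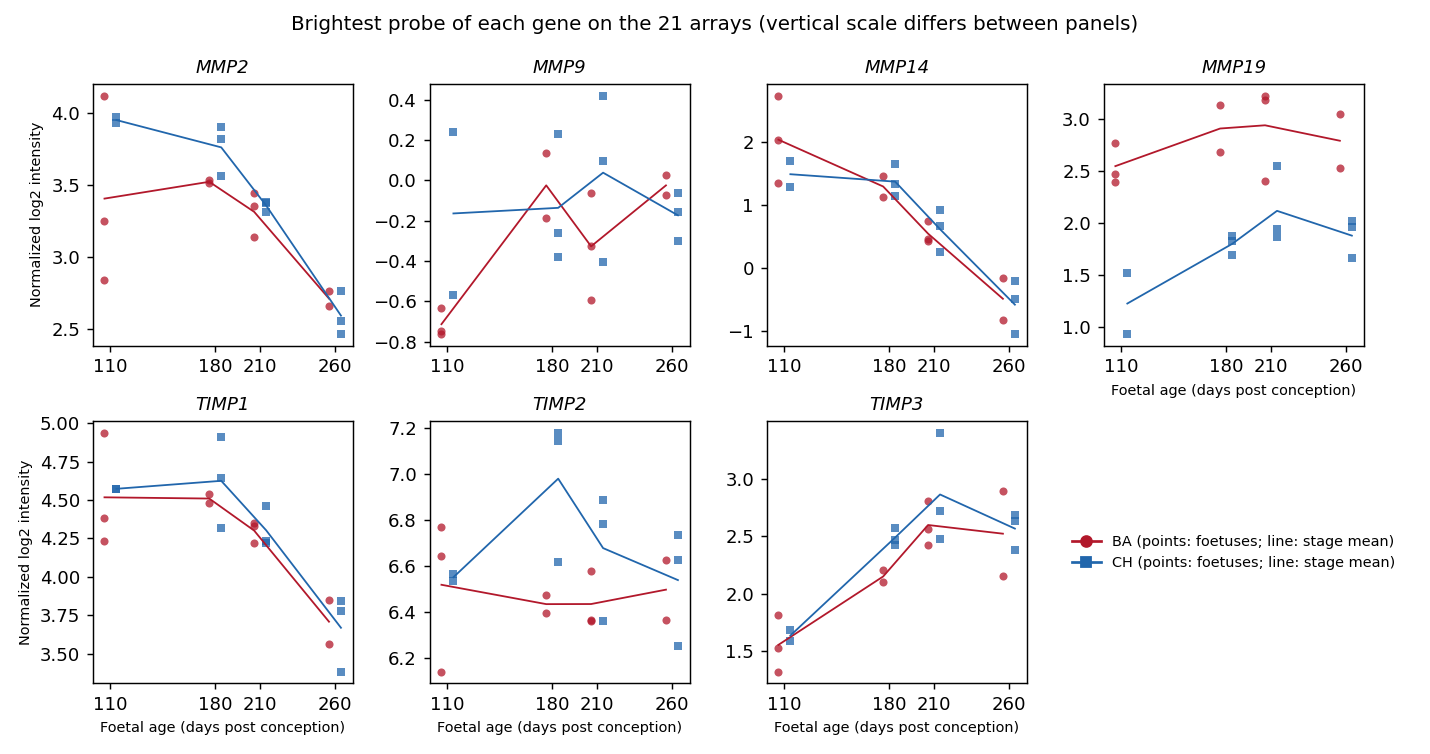
Normalized log2 intensity of the brightest probe of each of the 7 genes (vertical axes, a separate scale in each panel) against foetal age in days post conception. Each point is 1 foetus (circles BA, squares CH) and lines join the group means. *MMP14* fell from 2.04 in BA and 1.49 in CH at 110 dpc to -0.49 and -0.58 at 260 dpc, *TIMP3* rose, and for *MMP19* the BA line lies above the CH line at every stage.

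*MMP2*, also called gelatinase A, cuts denatured collagen and the type IV collagen of basement membranes. In BA its brightest probe read 4.12, 3.25 and 2.85 at 110 dpc, 3.53 and 3.51 at 180 dpc, 3.14, 3.45 and 3.36 at 210 dpc, and 2.77 and 2.66 at 260 dpc. In CH it read 3.93 and 3.97, then 3.90, 3.56 and 3.82, then 3.38, 3.39 and 3.31, and at last 2.47, 2.56 and 2.76. All 5 arrays of 260 dpc thus lay below all 5 arrays of 110 dpc, and the spread was widest in BA at 110 dpc. The same separation held for all 4 probes of the gene, and for 21.8% of the tested probes of the array.

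The change of *MMP2* from 110 to 260 dpc was -1.02 ± 0.17 (SE, limma, adjusted p = 4.3e-05), with -0.69 ± 0.24 in BA (adjusted p = 0.021) and -1.35 ± 0.24 in CH (adjusted p = 0.00014). These changes in the breeds differed by 0.66 ± 0.34 on the log2 scale, which did not pass (limma, adjusted p = 0.72, 95% interval -0.05 to 1.37). Most of the fall came late. From 110 to 180 dpc the difference was -0.04 (limma, adjusted p = 0.90), from 180 to 210 dpc -0.30 (adjusted p = 0.25) and from 210 to 260 dpc -0.68 (adjusted p = 0.0023). No step among the first 3 stages passed. The arrays of 110 dpc overlapped with those of 180 and of 210 dpc. The highest array of 210 dpc, at 3.45, lay below the lowest of 180 dpc, at 3.51, and how many probes of the array did so was not counted.

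The other 3 probes of *MMP2* fell by 0.97, 1.31 and 1.76 from 110 to 260 dpc, and each passed (limma, adjusted p = 0.00064, 5.4e-05 and 0.00012). The last of these was dim. It was not well above background on either BA array of 260 dpc, so its level in BA was at least 2.90-fold lower there than at 110 dpc, from measured means of -0.78 and -2.68, and it was well above background on 1 of 3 CH arrays of 260 dpc.

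*MMP14* had a single probe, which was well above background on all 21 arrays. In BA it read 2.75, 1.35 and 2.03 at 110 dpc, 1.14 and 1.46 at 180 dpc, 0.43, 0.47 and 0.75 at 210 dpc, and -0.16 and -0.82 at 260 dpc. The CH arrays read 1.70 and 1.29, then 1.34, 1.14 and 1.65, then 0.67, 0.93 and 0.26, and at last -1.05, -0.20 and -0.50. No array of 260 dpc came above 0 and none of 110 dpc came below 1, so these stages did not overlap in either breed. Every array of 260 dpc lay below every array of 110 dpc for 21.8% of the tested probes.

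The change of *MMP14* from 110 to 260 dpc was -2.30 ± 0.25 (SE, limma, adjusted p = 1.6e-06), and it was -2.53 ± 0.35 in BA (adjusted p = 4.4e-05) and -2.08 ± 0.35 in CH (adjusted p = 0.00026). The level went down at each step, by 0.43, 0.75 and 1.12, of which the last passed (limma, adjusted p = 0.32, 0.10 and 0.0025). The difference of the breeds in this change was -0.46, with a 95% interval of -1.52 to 0.60 (limma, adjusted p = 1.00).

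*MMP9*, or gelatinase B, is a product of neutrophils and macrophages in many tissues. Its brightest probe was well above background on all 21 arrays but lay low, from -0.76 to 0.42. In BA the values were -0.74, -0.76 and -0.63 at 110 dpc, 0.14 and -0.19 at 180 dpc, -0.33, -0.06 and -0.59 at 210 dpc, and -0.07 and 0.03 at 260 dpc. In CH they were -0.57 and 0.24, then -0.26, -0.38 and 0.23, then -0.40, 0.10 and 0.42, and at last -0.06, -0.15 and -0.30. The 3 BA arrays of 110 dpc were the lowest of all 21, and the stages overlapped in CH. How many probes of the array had these arrays lowest was not counted.

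The change of *MMP9* from 110 to 260 dpc was 0.34 ± 0.19 (SE) and did not pass (limma, adjusted p = 0.15, 95% interval -0.06 to 0.74). It was 0.69 in BA (limma, adjusted p = 0.056) and -0.01 in CH (adjusted p = 0.98). The other 2 probes of the gene were well above background on 2 and on 0 of the 21 arrays, and no level is read from them. Of the 4 neutrophil genes set beside *MMP9*, 3 had a probe and *S100A12* alone passed the filter, with a change of 0.93 (limma, adjusted p = 0.0088). That call was lost in the authors' unscaled values, with the slide as a block and without CH replicate 1 of 110 dpc. In the fit on all probes *S100A9* had 2.03 and *S100A8* 1.84 (limma, adjusted p = 0.032 and 0.073).

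*TIMP1*, which inhibits most soluble metalloproteinases and binds the proform of *MMP9*, followed the course of *MMP2*. In BA its brightest probe read 4.93, 4.23 and 4.38 at 110 dpc, 4.54 and 4.48 at 180 dpc, 4.22, 4.33 and 4.35 at 210 dpc, and 3.85 and 3.56 at 260 dpc. In CH it read 4.57 on both arrays of 110 dpc, then 4.65, 4.32 and 4.91, then 4.22, 4.23 and 4.46, and at last 3.38, 3.78 and 3.84. The arrays of 260 dpc were the 5 lowest of the series, and for how many probes of the array this held was not counted. The change from 110 to 260 dpc was -0.86 ± 0.14 (SE, limma, adjusted p = 3.8e-05), with -0.81 in BA (adjusted p = 0.0023) and -0.91 in CH (adjusted p = 0.00095).

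As for *MMP2*, the step of *TIMP1* that passed was the last, -0.61 from 210 to 260 dpc (limma, adjusted p = 0.0012). The earlier steps were 0.02 and -0.26 (limma, adjusted p = 0.93 and 0.23). The second *TIMP1* probe fell by 0.85 from 110 to 260 dpc (limma, adjusted p = 0.00011), and its 260 dpc arrays also lay below all 110 dpc arrays.

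*TIMP2* inhibits *MMP2* and takes part in its activation by *MMP14*. In BA its brightest probe read 6.77, 6.14 and 6.64 at 110 dpc, 6.40 and 6.47 at 180 dpc, 6.36, 6.58 and 6.36 at 210 dpc, and 6.63 and 6.37 at 260 dpc. For CH the values were 6.57 and 6.54, then 7.18, 6.62 and 7.15, then 6.36, 6.78 and 6.89, and at last 6.25, 6.74 and 6.63. No stage stood apart in BA. The highest readings, 7.18 and 7.15, were of CH at 180 dpc, where the remaining array read 6.62. The change from 110 to 260 dpc was -0.02 (limma, adjusted p = 0.93), with a 95% interval of -0.33 to 0.30, and quantile normalization turned it into a call of -0.36 (adjusted p = 0.043).

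Of the steps of *TIMP2*, none passed: they were 0.17, -0.15 and -0.04 (limma, adjusted p = 0.44, 0.56 and 0.85, and unadjusted p = 0.26, 0.30 and 0.79). Its second probe changed by 0.01 from 110 to 260 dpc (limma, adjusted p = 0.96) and its dimmest one by 0.33 (adjusted p = 0.074). The probes therefore differed in the size of this change, while none of them passed.

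*TIMP3* is held in the extracellular matrix and also inhibits ADAM and ADAMTS proteases. In BA its brightest probe read 1.82, 1.33 and 1.53 at 110 dpc, 2.10 and 2.20 at 180 dpc, 2.42, 2.56 and 2.81 at 210 dpc, and 2.15 and 2.89 at 260 dpc. In CH it read 1.68 and 1.59, then 2.57, 2.47 and 2.42, then 2.72, 2.47 and 3.39, and at last 2.69, 2.63 and 2.38. The arrays of 110 dpc were the 5 lowest of the series, below every later array, and how many probes of the array shared this was not counted.

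The change of *TIMP3* from 110 to 260 dpc was 0.95 ± 0.17 (SE, limma, adjusted p = 9e-05), and it was 0.96 in BA (adjusted p = 0.0024) and 0.93 in CH (adjusted p = 0.0032). Its rise came early. It was 0.72 from 110 to 180 dpc (limma, adjusted p = 0.0044), 0.41 from 180 to 210 dpc (adjusted p = 0.12) and -0.19 from 210 to 260 dpc (adjusted p = 0.36). The other 2 *TIMP3* probes rose by 0.84 and 0.90 from 110 to 260 dpc (limma, adjusted p = 0.00026 and 0.00021). All 260 dpc arrays lay above all 110 dpc arrays for the 3 probes, as for 25.4% of the tested probes of the array.

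By step, the called probes of the family were all *TIMP3* from 110 to 180 dpc, where 3 of 19 rose and none fell, next to 12.5% and 11.4% of the tested probes (24% in either direction, and 13.2% of all probes). From 180 to 210 dpc 0 of 19 passed in limma, 3 had an unadjusted p under 0.05, and 9.69% of the tested and 3.62% of all probes passed. From 210 to 260 dpc 7 fell, the 4 of *MMP2*, the 2 of *TIMP1* and that of *MMP14*, and none rose, next to 19.9% and 24.8% of the tested probes (44.7% in either direction, and 24% of all probes). The size of a gene's change was not tested between steps, and *MMP14* had -0.75 from 180 to 210 dpc at an unadjusted p of 0.0060 in limma.

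**Figure D2:**
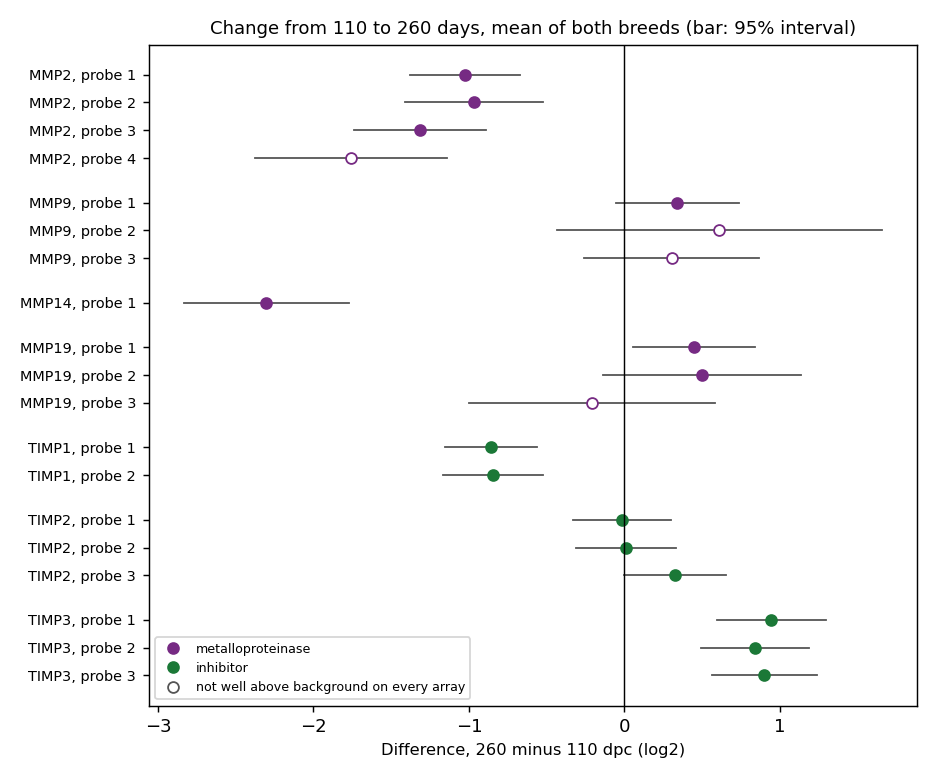
Difference between 260 and 110 dpc (log2, horizontal axis), averaged over both breeds, for each of the 19 probes ordered by gene and within a gene by brightness. Bars are 95% intervals of the limma fit and open symbols are probes that were not well above background on every array. The 4 *MMP2* probes, the *MMP14* probe and the 2 *TIMP1* probes lie left of 0 with their intervals, and the 3 *TIMP3* probes lie right of it.

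The falls and the rise of these 4 genes were also found within scan days, on which the arrays of a group were spread. On scan day 1, with 2 arrays of 260 dpc and 1 of 110 dpc, the differences were -1.41 for *MMP2*, -2.22 for *MMP14*, -1.10 for *TIMP1* and 1.20 for *TIMP3*. On scan day 2, with 3 arrays of each stage, they were -1.07, -2.22, -0.76 and 0.78 in the same order, and scan day 3 held no array of 260 dpc. With the slide as a block they were -1.02, -2.31, -1.0 and 0.85 (limma, adjusted p = 0.0073, 0.00015, 0.00061 and 0.0012). Only slide 5 held both stages, with 1 array of each, which were of different breeds.

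*MMP19*, first described as an autoantigen of rheumatoid arthritis, cuts proteins of basement membranes such as type IV collagen and laminin. In BA its brightest probe read 2.40, 2.47 and 2.77 at 110 dpc, 2.69 and 3.13 at 180 dpc, 3.19, 2.41 and 3.23 at 210 dpc, and 3.05 and 2.53 at 260 dpc. The CH foetuses gave 0.94 and 1.52, then 1.88, 1.83 and 1.69, then 1.86, 1.94 and 2.55, and at last 1.96, 1.66 and 2.02. BA lay above CH without overlap at 110, 180 and 260 dpc. At 210 dpc 1 CH foetus at 2.55 was above 1 BA foetus at 2.41.

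These breed values chose the gene and are given with no test. The difference of BA from CH was 1.32 ± 0.26 (SE) at 110 dpc, 1.11 ± 0.26 at 180 dpc, 0.82 ± 0.24 at 210 dpc and 0.91 ± 0.26 at 260 dpc, and 1.04 ± 0.13 on average, which is 2.06-fold. The second probe gave 1.09, 1.19, 0.74 and 0.73 at these stages and the dimmest 0.55, 1.48, 0.83 and 0.78. The second probe separated the breeds at the same 3 stages as the first, and the dimmest at 110, 180 and 210 dpc. Of all tested probes, 0.839% had BA above CH without overlap at 3 or more stages.

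**Figure D3:**
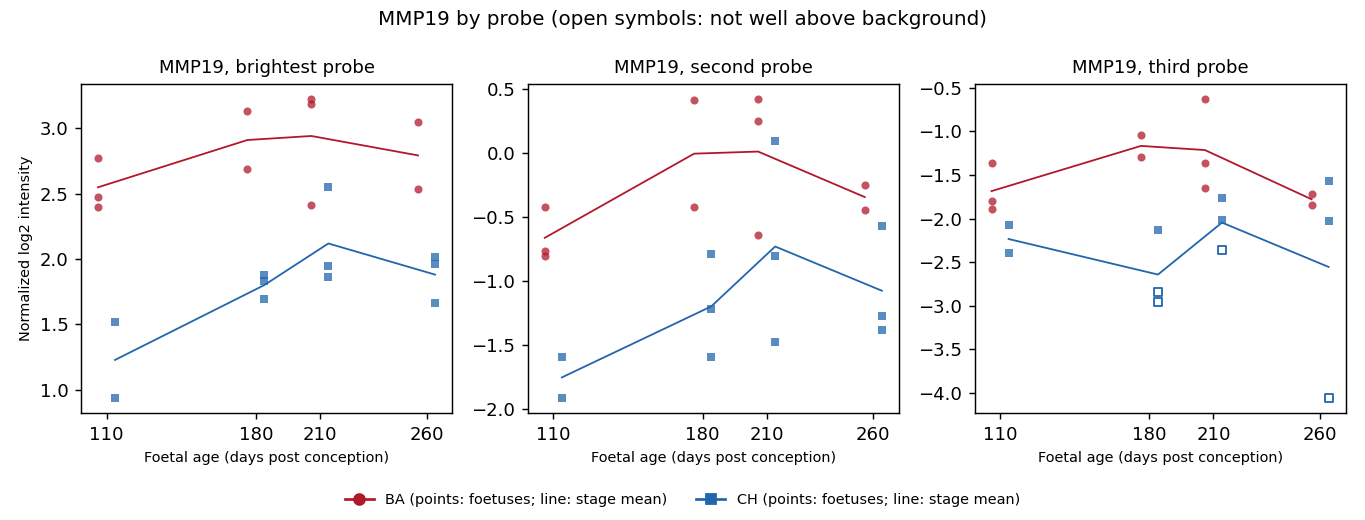
Normalized log2 intensity of the 3 *MMP19* probes (one panel each, with its own vertical scale) against foetal age in days post conception. Filled circles are BA foetuses, filled squares CH foetuses, open symbols values not well above background, and lines join group means. The BA mean lies above the CH mean at all 4 stages for each probe, and the third probe was well above background on 17 of 21 arrays.

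The third *MMP19* probe was not well above background on 4 CH arrays, of which the lowest, at 260 dpc, read -4.06, while the other CH arrays of that stage read -2.03 and -1.57 and the BA arrays -1.71 and -1.84. The first and second probes were well above background on all 21 arrays.

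The arrays were spread over 6 slides, of which slide 1 held CH arrays alone and the others held both breeds. On these, 6 pairs of a BA and a CH foetus shared the slide and the stage. BA had the higher *MMP19* level in 6 of 6 pairs for each of the 3 probes. For the brightest probe the pairs differed by 0.55 to 1.54, with a mean of 1.04. The differences were 1.54 at 110 dpc, 1.30 at 180 dpc, 1.24 and 0.55 at 210 dpc, and 1.04 and 0.57 at 260 dpc. The pairs hold the same values that chose the gene, so they describe its difference and are no separate evidence of it. A one-sided order was not particular to *MMP19*: for the dimmest *TIMP3* probe BA was higher in 0 of 6 pairs (-0.85 to -0.0051). How many probes of the array lay one way in all 6 pairs was not counted.

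**Figure D4:**
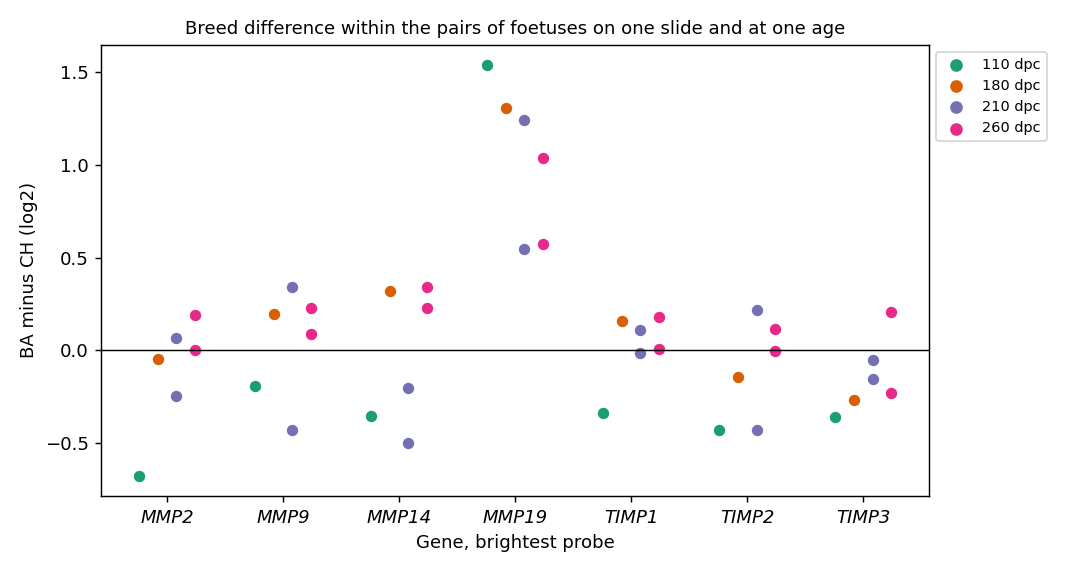
Difference of BA from CH (log2, vertical axis) in the 6 pairs of foetuses that shared a slide and a stage, for the brightest probe of each gene, coloured by stage. All 6 pairs lie above 0 for *MMP19*, from 0.55 to 1.54, and pairs lie on both sides of 0 for each of the other 6 genes.

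With age, the *MMP19* level rose by 0.45 ± 0.19 (SE) between 110 and 260 dpc on average over the breeds (limma, adjusted p = 0.044), with 0.65 in CH (adjusted p = 0.047) and 0.24 in BA (adjusted p = 0.46). The average call was lost in 17 of 36 alternatives, and the other 2 probes, at 0.50 and -0.21, did not pass (limma, adjusted p = 0.19 and 0.68). The steps were 0.47, 0.17 and -0.19 (limma, adjusted p = 0.079, 0.60 and 0.40). The first passed with the scan day as a block (0.51, limma, adjusted p = 0.045) and without BA replicate 2 of 210 dpc or CH replicate 2 of 110 dpc, and the last in the authors' unscaled values (-0.60, adjusted p = 0.022).

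*MMP19* was left untested in the comparison of the breeds, and none of the other 6 genes passed. Of the 16 probes of the other 6 genes, 0 passed in limma on average over the stages and 1 had an unadjusted p under 0.05, where 0.358% of the tested and 0.0733% of all probes of the array passed. At 110, 180, 210 and 260 dpc 0 of 16 passed as well, with 2, 2, 0 and 0 at an unadjusted p under 0.05, and 0.273%, 0.00993%, 0% and 0% of the tested probes passed (at 110 dpc 0.0206% of all probes). The change from 110 to 260 dpc differed between the breeds for 0 of 16 probes in limma, 0 at an unadjusted p under 0.05, and for 0% of the tested probes.

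The average difference of BA from CH was -0.18 for *MMP2* (95% interval -0.42 to 0.07), -0.16 for *MMP9* (-0.44 to 0.11) and 0.12 for *MMP14* (-0.24 to 0.49). Among the inhibitors it was -0.03 for *TIMP1* (-0.24 to 0.17), -0.22 for *TIMP2* (-0.43 to 0.00) and -0.18 for *TIMP3* (-0.42 to 0.06). Exact permutation of the breeds within the stages, two-sided over 20000 arrangements with a smallest possible p of 5e-05, gave p = 0.22, 0.26 and 0.51 for the 3 enzymes. The same exact permutation gave p = 0.73, 0.074 and 0.12 for the 3 inhibitors. A p that misses the threshold does not show equal levels. With single arrays left out, the average ran from -0.27 to -0.11 for *MMP2*, -0.26 to -0.06 for *MMP9*, 0.04 to 0.21 for *MMP14* and -0.27 to -0.09 for *TIMP3*, the ends coming without 1 array of 110 dpc for the enzymes and 1 BA array of 260 dpc for *TIMP3*.

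The lowest p among these 16 probes came from the second *TIMP3* probe. In BA it read 1.19, 0.45 and 0.80 at 110 dpc, 1.52 and 1.95 at 180 dpc, 1.85, 1.93 and 1.98 at 210 dpc, and 1.47 and 2.26 at 260 dpc. In CH it read 1.43 and 1.32, then 1.93, 1.80 and 1.94, then 2.14, 2.16 and 2.74, and at last 2.16, 1.93 and 1.92. BA lay below CH without overlap at 110 and 210 dpc, where 17.5% and 4.91% of the tested probes did so. Its average difference was -0.32 ± 0.11 (SE, limma, adjusted p = 0.24, exact permutation p = 0.016 before any adjustment), and the other *TIMP3* probes gave -0.18 and -0.20.

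*TIMP2* differed most at 180 dpc, where all 3 of its probes had both BA arrays below all 3 CH arrays, as 13.6% of the tested probes did. The difference of the brightest probe there was -0.55 ± 0.21 (SE, limma, adjusted p = 0.73). The brightest *MMP2* probe differed at 110 dpc by -0.54 ± 0.24 (SE, limma, adjusted p = 0.32). The other probes of the gene gave -0.33, -0.22 and 0.11 there (limma, adjusted p = 0.65, 0.88 and 0.997). The value of the brightest probe depended on single arrays. Without BA replicate 1 of 110 dpc it was -0.90 and passed (limma, adjusted p = 0.016), and without BA replicate 3 of that stage it was -0.26.

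BA replicate 1 of 110 dpc stood above its group for several genes of the family. It exceeded the group mean by 0.71 for *MMP2*, 0.70 for *MMP14* and 0.42 for *TIMP1*. On the same array the mean of the 9 fibroblast marker genes stood 0.55 above its group, where the largest such excess of any other array was 0.34. The mean of 3 tendon and cartilage genes stood 2.23 above, where the next was 1.53. For 4 adipocyte genes the excess was 1.30, where the next was 1.16, and for 16 matrix proteins 0.39, where the next was 0.15. The mean of 10 leukocyte marker genes was 0.25 below its group. The part of other tissue in this array's values was not tested.

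After each group's mean had been taken off, over 21 arrays, *TIMP1* correlated with the mean of the fibroblast markers at r = 0.94, *TIMP2* at 0.78, *MMP2* at 0.63 and *MMP14* at 0.60, while *TIMP3* came to 0.29, *MMP9* to 0.28 and *MMP19* to 0.20. With the mean of 3 tendon and cartilage genes *TIMP1* came to 0.84, *TIMP2* to 0.81, *MMP14* to 0.63, *MMP2* to 0.57, *MMP9* to 0.41, *TIMP3* to 0.14 and *MMP19* to 0.05. With the mean of the muscle fibre markers the 7 values lay between -0.46 and -0.09. With the mean of 4 adipocyte genes, of which 2 were well above background on every array, *TIMP1* came to 0.67, *TIMP2* to 0.62, *MMP2* to 0.55 and *MMP14* to 0.53. There *MMP9* came to 0.27, *MMP19* to -0.07 and *TIMP3* to -0.11. All these values are descriptions over arrays that share scaling and tissue sampling, BA replicate 1 of 110 dpc among them.

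The fibroblast markers themselves changed with age. Of 9, 6 fell between 110 and 260 dpc (*POSTN* by -4.37, *FAP* by -2.01 and *LUM* by -1.44 among them), 1 rose (*PI16*, by 2.29) and 2 did not pass, with a median difference of -0.61, next to 0.04 for all tested probes. Their mean level was 5.74, 5.64, 5.43 and 4.92 at the 4 stages in BA and 5.95, 6.14, 5.63 and 4.90 in CH, while all 6 muscle fibre markers rose, with a median of 2.58. Of the tendon and cartilage genes *TNMD* and *COL2A1* fell by 4.12 and 3.77 (limma, adjusted p = 0.0016 and 8.9e-05). The mean of the 3 genes, which includes *ACAN* near background, was 2.50 in BA and 2.28 in CH at 110 dpc and -0.23 and -1.11 at 260 dpc. In whole muscle, fewer cells of a type and less RNA per cell cannot be told apart, and the part of either, or of tendon and cartilage, in the fall of *MMP2*, *MMP14* and *TIMP1* was not tested.

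Of the leukocyte markers 4 of 6 tested fell and 1 rose, and of the endothelial markers 5 of 10 rose and 1 fell, next to 33.3% and 30.8% of the tested probes. In the authors' unscaled values 0 of the leukocyte and 0 of the endothelial markers rose in limma, and 2 of the endothelial markers fell. Between the breeds, averaged over the stages, the median difference of BA from CH was 0.20 for the 6 tested leukocyte markers. All 6 lay on the BA side, by 0.06 to 0.57. Outside the filter *CD14*, *FCER1G* and *CD163* lay on that side too, and *ITGAM*, near background, on the CH side (-0.23). The 3 neutrophil genes with a probe lay on the CH side, *S100A12* with -0.33 and, outside the filter, *S100A8* with -0.99 and *S100A9* with -0.91. The median was 0.00 for the endothelial markers (-0.37 to 0.23) and -0.24 for the fibroblast markers (-0.43 to -0.01), beside the 1.04 of *MMP19*. Within groups the *MMP19* level correlated with the mean of the leukocyte markers at r = 0.06, and the part of these cells in its breed difference was not tested.

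Over the 21 arrays the 2 *TIMP1* probes correlated at r = 0.96, the 3 *TIMP3* probes at 0.94 to 0.96, and the 2 brightest *TIMP2* probes at 0.98. The 2 brightest *MMP2* probes reached 0.95 and the other 5 pairs of its probes 0.65 to 0.83, and within groups the dimmest probe came to -0.06, 0.12 and 0.30 with the others. The third *TIMP2* probe reached 0.77 and 0.79 with the others. The *MMP19* probes came to 0.86, 0.62 and 0.71, and the *MMP9* probes, of which only 1 was well above background throughout, to 0.16, 0.54 and 0.11. Probes of 1 gene on the same arrays are not replicates, and these values carry no test.

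Among the genes, the closest courses over the 8 group means were those of *MMP2* and *TIMP1* (r = 0.96), *MMP14* and *TIMP1* (0.94) and *MMP2* and *MMP14* (0.86). Within groups, over 21 arrays, these pairs came to 0.71, 0.72 and 0.54. *TIMP1* and *TIMP2* had r = 0.80 within groups but 0.32 over the group means. *MMP19* had r between -0.52 (*TIMP2*) and 0.21 (*TIMP3*) with the others over the group means, and between -0.26 (*MMP2*) and 0.12 within groups. The group means follow age, so the first set of values reflects common falls with age.

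Of the 7932 named genes with a tested probe, those with group means most like *MMP19* were *PSMB9* (r = 0.96), a subunit of the immunoproteasome, *HOOK3* (0.95), a microtubule adaptor, and *NUDT9* (0.95), a hydrolase of ADP-ribose. *MMP14* was closest to *MAP1LC3A*, *POMK* and *DPP7* (1.00, 0.99 and 0.99), *MMP2* to *CCND3*, *CDC42EP4* and *FEZ1* (all 0.99), and *TIMP1* to *ACCS*, *AFAP1L2* and *PTTG1IP* (all 1.00). *TIMP3* was closest to *BCO2*, *KANK2* and *CD9* (0.99, 0.98 and 0.98), *TIMP2* to *VPS36*, *LGALS3* and *CLCC1* (0.93, 0.90 and 0.87) and *MMP9* to *CPT1B*, *RNF19B* and *ETS2* (0.97, 0.96 and 0.95). The likeness is Pearson's r over 8 group means and was the highest among these genes, so it is a description.

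Other enzymes of the family were mostly too dim to test. Of 18 further metalloproteinases, 9 had a probe and 2 passed the filter. *MMP16*, a second membrane enzyme, fell by 0.65 between 110 and 260 dpc (limma, adjusted p = 0.025), a call lost with median scaling, in female foetuses and without 3 of the single arrays, and *MMP15* had 0.08 and did not pass.

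Of 7 further inhibitors, 5 were tested, 2 rose and 1 fell. *TIMP4*, the inhibitor most typical of muscle and heart, rose by 1.09 ± 0.28 (SE, limma, adjusted p = 0.0026) and *A2M*, a plasma protease inhibitor, by 0.61 (adjusted p = 0.030). *SERPINH1*, a collagen chaperone listed here for its serpin fold, fell by 0.95 (limma, adjusted p = 2.5e-05). *TIMP3* and *TIMP4* thus rose while *TIMP1* fell. The 2 rising calls became 1 with normexp correction, with no filter, in female foetuses and with the slide as a block, and 0 in the authors' unscaled values.

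Of 11 genes for the activation and clearance of these enzymes, 6 were tested, 2 rose and 3 fell. *BSG*, the membrane protein basigin that induces metalloproteinases, rose by 1.70 ± 0.11 (SE, limma, adjusted p = 5e-10) and the cathepsin *CTSB* by 0.30 (adjusted p = 0.0052). The plasminogen activators *PLAT* and *PLAU* fell by 1.34 and 0.66 (limma, adjusted p = 1.1e-09 and 0.0011), and cathepsin K, *CTSK*, fell by 0.70 (adjusted p = 0.0021). Rises numbered 1 with quantile normalization and in the authors' unscaled values, and over all tested probes 33.3% rose and 30.8% fell.

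Of 25 ADAM and ADAMTS proteases, relatives of the metalloproteinases, 9 were tested, 1 rose and 3 fell. *ADAM12*, a protease of growing and regenerating muscle, fell by 1.50 (limma, adjusted p = 3.3e-07), *ADAMTS5* and *ADAMTS4*, which cut versican and aggrecan, fell by 0.83 and 1.33 (adjusted p = 3.3e-05 and 0.00061), and *ADAMTS20* rose by 0.41 (adjusted p = 0.010). Of the tested probes of the array 64.1% passed. Without the filter 7 fell and 2 rose, and 0 rose by limma in the authors' unscaled values and with the slide as a block. *ADAMTS20* was also the only gene of these lists that passed in the average breed comparison, with BA above CH by 0.43 (limma, adjusted p = 0.047), a call lost without the filter.

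Of 22 matrix proteins that such enzymes cut, 16 were tested, 3 rose and 8 fell, with a median of -0.31 next to 0.04 for all tested probes. The proteoglycan *VCAN*, or versican, fell by 4.63 and *COL18A1*, a collagen of basement membranes, by 2.52 (limma, adjusted p = 8.6e-13 and 1.6e-12), and the laminin chain *LAMA4* by 1.06 (adjusted p = 7.4e-07). *COL15A1* rose by 1.80, *COL4A1* by 0.54 and *ELN*, elastin, by 2.82 (limma, adjusted p = 8.7e-11, 7.8e-06 and 0.00011). Among all tested probes 33.3% rose and 30.8% fell, and nothing is read from the list's share.

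**Figure D5:**
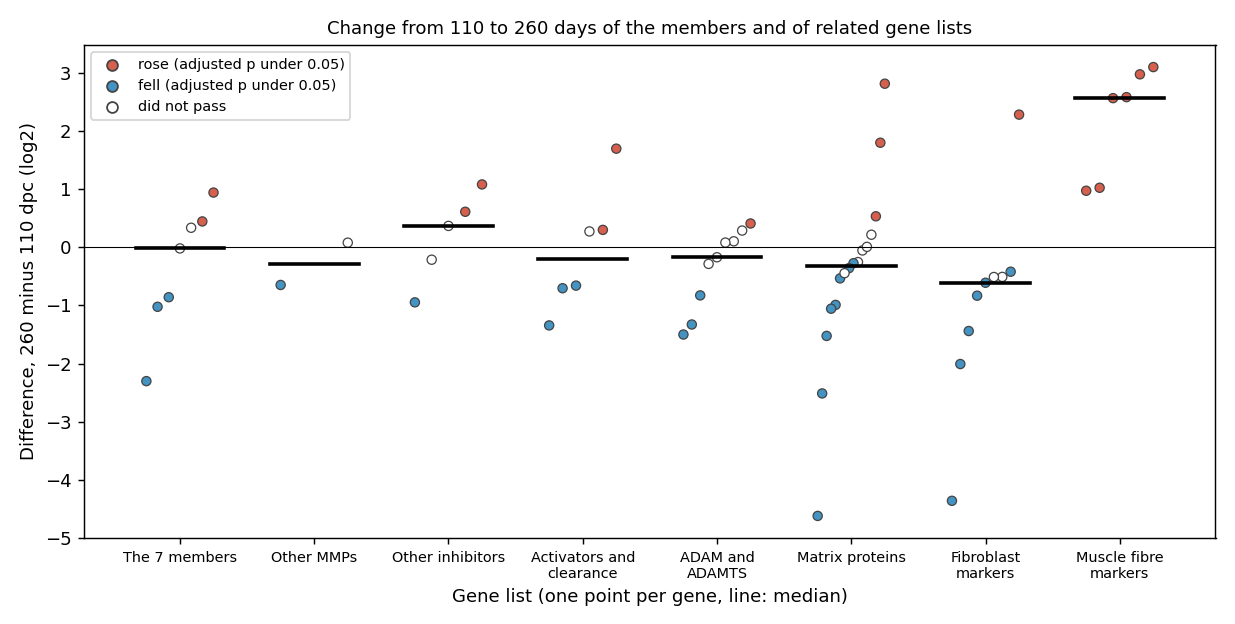
Difference between 260 and 110 dpc (log2, vertical axis), averaged over both breeds, for the 7 members by their brightest probe and for the tested genes of 7 related lists. Each point is a gene, filled where its limma adjusted p was under 0.05, and the line is the median. Matrix proteins and fibroblast markers fell in the median, by 0.31 and 0.61, and the muscle fibre markers rose by 2.58.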

How the data were processed

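RNA of 21 foetal muscles had been hybridized on 1-colour Agilent bovine arrays, and the deposited files were read with the scanner software Feature Extraction 10.7. The authors deposited the processed signal intensity of each spot from that software. The study's methods name detrending for it, with no subtraction of background. They also deposited a table of log2 values, of which 99.996% lay within 0.01 of the log2 processed intensity. The authors' log2 values were therefore not scaled between arrays, although the methods describe normalization within and between arrays. Control spots and 258 outlier spots were left out, spots of a probe were averaged, and the log2 intensity was set against the 75th percentile of its array (525 to 1174 intensity units), with 2.69 added throughout. The number of arrays limits the precision.

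Samples were grouped by breed and stage from the labels. Means of the 8 groups were estimated in R 4.3.3 by limma 3.58.1 for 20132 probes with a group mean above 0 in at least 7 groups, with Benjamini-Hochberg adjustment and a threshold of 0.05. Members outside this filter were adjusted over the 43651 of 43653 probes that could be fitted in full. Probes were named through the RefSeq transcript of the array design and the RefSeq gene table. Each gene is shown by its brightest probe, related lists by at most 3 genes in each direction with the lowest p. Intervals are 95% intervals of the fit. Each array is a separate foetus, and the labels give its sex and sire. Foetuses of a breed share 2 sires, so p-values treat paternal relatives as independent. The members and all lists were chosen with earlier results of these data known.

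Alternatives covered background correction, scaling, source of values, filters, sex, slide, scan day, sire, replicate number, variance, probe choice and each array left out. On simulated data with 200 of 20132 probes shifted by 1, the fit recovered 180 for the stage change with 5 false calls, and 194 for the breed difference with 11. The simulated noise was independent between arrays, with no slide, scan day or sire in it and no other probe changed. These counts therefore do not give the error rates on the real arrays. Replicate numbers do not pair foetuses.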

Additional observations from a re-analysis of the deposited data

How the results depend on the processing

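From 110 to 260 dpc *MMP2* (-1.41 to -0.84), *TIMP1* (-1.25 to -0.63) and *TIMP3* (0.56 to 1.13) kept their direction and their call in 36 of 36 alternatives and *MMP14* (-2.69 to -1.52) in 34 of 34, and the *MMP19* breed difference stayed between 0.92 and 1.15. For the reversals and moved counts below the cause was not tested. The values of the authors' table are not scaled between arrays. The 75th percentile was 525 to 669 intensity units on the arrays of 260 dpc and 669 to 932 on those of 110 dpc. *MMP19* from 110 to 260 dpc lost its call in 17 of 36, as with slide as a block (0.27, limma adjusted p = 0.46) and in the authors' table (0.06, 0.84), and ran from 0.30 to 0.59 with single arrays left out. *MMP9* from 110 to 260 dpc passed with normexp, quantile scaling and without CH replicate 2 of 110 dpc. *TIMP3* from 210 to 260 dpc passed in the authors' table (-0.60) and with slide as a block (-0.30).

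Directions that turned were those of small differences. In the authors' table *MMP9* had -0.051 (110 to 260 dpc) and -0.37 (210 to 260 dpc), *TIMP1* 0.021 (breed). With slide as a block *MMP9* had -0.037 and -0.064, with scan day -0.0038 (210 to 260 dpc). With normexp *MMP2* had 0.0050 (110 to 180 dpc) and *MMP9* 0.00038 (180 to 210 dpc). In female foetuses alone *MMP2* had 0.025 (110 to 180 dpc), *MMP9* 0.046 and *MMP14* -0.073 (breed), *MMP19* -0.052 and 0.074 (180 to 210 and 210 to 260 dpc) and *TIMP2* 0.22 and 0.15 (110 to 260 and 210 to 260 dpc). With the array median *TIMP2* had 0.084 and 0.056. The next probe gave 0.63 and -0.22 for *MMP9* (180 to 210 and 210 to 260 dpc), where it was well above background on 2 of 21 arrays and shows no level, -0.046 for *TIMP1* (110 to 180 dpc) and 0.010 for *TIMP2*, and the mean of probes -0.012 for *TIMP1* (110 to 180 dpc) and 0.11 and 0.023 for *TIMP2*.

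With single arrays left out, *MMP2* ran from -0.18 to 0.14 (110 to 180 dpc), -0.35 to -0.26 (180 to 210 dpc) and -0.90 to -0.26 (breed, 110 dpc), *MMP9* from 0.14 to 0.54, -0.16 to 0.047 and -0.065 to 0.14 (110 to 260, 180 to 210, 210 to 260 dpc), *MMP19* from 0.32 to 0.61 (110 to 180 dpc), *TIMP1* from -0.049 to 0.13 (110 to 180 dpc) and -0.086 to 0.0023 (breed), and *TIMP2* from -0.11 to 0.055 and -0.12 to 0.033 (110 to 260, 210 to 260 dpc).

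Of the 7 genes, 3 were called in CH from 110 to 260 dpc and 5 from 210 to 260 dpc in the authors' table. In the scaled values with single arrays left out these counts were 4 to 5 and 3. With scan day as a block 2 were called from 110 to 180 dpc. The shares of all probes in the authors' table and with that block are not given here, and nothing is read from the counts. Leaving out arrays gave 2 to 5 in BA from 110 to 260 dpc (2 without BA replicate 2 of 260 dpc), next to 7782 to 10645 of the 20132 tested probes. It gave 1 to 2 from 110 to 180 dpc, next to 3313 to 4968 tested probes, and 0 to 1 from 180 to 210 dpc and between the breeds at 110 dpc. Of all tested probes, the breed difference called 72, and 20 in the authors' table, 32 without a filter, 20 in females, 18 with slide, 25 with scan day, 209 with sire and 45 with the replicate block, and 25 to 218 with arrays left out. The sire block rested on an estimated correlation of -0.031, with 2 sires in each breed, so its 209 calls are no check on relatedness. Left-out ranges of all probes were 1080 to 2238 from 180 to 210 dpc, 1 to 183, 0 to 4, 0 to 4 and 0 to 31 for the breeds at the 4 stages and 0 to 13 for the change by breed.

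The replicate number as a block changed no member call. Samples of the same number had a median correlation of 0.03 after group means were removed (66 pairs) and samples of different numbers -0.0031 (126 pairs), so the numbers do not pair foetuses.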
